A study of Homo sapiens with 4 samples.

Results

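Glioma driver loci were examined in ChIP-seq data from T98G, an established human glioblastoma cell line. The loci are those of TERT, ATRX, BRAF and NF1. Their members were the 12 regions that the authors assigned to 1 of these 4 genes by symbol. Another 43 regions within 500 kb of a gene's span in the table served as local background. Together they made up 55 of the 29302 regions deposited. The genes were picked with values of these regions already known. The reads, ratios and calls of the 12 regions are therefore given as a description, and no test was applied to them.

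The series compared T98G cells that overexpressed LGP2 (labelled oeLGP2) with T98G cells that carried the empty vector. LGP2 belongs to the RIG-I-like receptors, helicases that sense viral RNA in the cytosol. Each condition had 1 ChIP library and 1 input library, so there were 4 samples in 4 groups and no replicates. All cells were of 1 line, grown in the same medium and fixed with formaldehyde. The column names of the table place LGP2 and the control in a construct called pCW. The input libraries were not analysed here. No source used here names the antibody of the oeLGP2 library, and the study lists the vector library with its data on crotonylated lysine. Signal below therefore means ChIP reads without a stated target.

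These genes stand for the main routes by which gliomas secure telomeres and growth signals. TERT encodes the catalytic subunit of telomerase, which is silent in most adult tissues and is often switched on in glioblastoma through changes in its promoter. ATRX encodes a chromatin remodeller that places histone H3.3 together with DAXX, and tumours that lose it tend to keep their telomeres by recombination instead. BRAF encodes a kinase that passes the signal of RAS on to MEK. NF1 encodes neurofibromin, which switches RAS off.

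Each region had a normalized read density per library, as deposited by the authors. The densities traced back to whole reads, counted in a window inferred to be 2 kb wide (100% of regions, tolerance 0.001 reads). The depth was low. The median region of the series had 5 reads over both libraries together, and the 12 member regions had between 2 and 7. All intervals below are exact 95% intervals and cover counting error only, and since no molecular identifiers are described, reads can be copies of each other. Total depth per library is unknown. No read was counted at more than 1 of the 55 regions, since the closest neighbours lay 3230 bp apart. None of the 55 regions was called in both libraries, as only 79 of all 29302 (0.270%) were.

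The sequences below show the promoters that the calls did and did not reach. They are the 250 bases before the start that the promoter table of RefSeq (GRCh38.p14) gives for each gene, 5′ to 3′. For TERT and NF1 that start is the edge of the gene span. For BRAF it lies inside the span, which reaches further to 140924929, so the BRAF window is not the sequence before the outermost start. No called region overlapped the window of TERT, BRAF or NF1, and the table of promoters used here held no entry for ATRX. Over the whole series, 231 of 35116 such windows (0.658%) were overlapped by a region. At these loci 2 windows were, those of ADAP2 and COPRS, both near NF1. The windows of TERT and NF1 are shown because both genes have regions elsewhere in the gene, with CpG dinucleotides in capitals. The window of ADAP2 is shown as 1 that a region did enter, with the 65 bases inside the region in capitals.

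TERT, chr5:1295069-1295318, minus strand: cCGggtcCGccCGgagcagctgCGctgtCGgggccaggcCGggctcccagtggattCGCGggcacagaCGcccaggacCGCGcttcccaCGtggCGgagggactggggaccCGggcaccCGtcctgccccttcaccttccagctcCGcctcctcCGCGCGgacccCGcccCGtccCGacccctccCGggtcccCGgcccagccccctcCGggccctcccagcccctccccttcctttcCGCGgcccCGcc

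NF1, chr17:31094727-31094976, plus strand: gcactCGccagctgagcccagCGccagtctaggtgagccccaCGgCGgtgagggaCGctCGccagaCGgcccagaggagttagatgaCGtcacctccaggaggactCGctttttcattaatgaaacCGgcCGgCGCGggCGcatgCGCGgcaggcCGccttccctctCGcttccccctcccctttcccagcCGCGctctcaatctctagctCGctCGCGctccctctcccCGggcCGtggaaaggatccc

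ADAP2, chr17:30921695-30921944, plus strand: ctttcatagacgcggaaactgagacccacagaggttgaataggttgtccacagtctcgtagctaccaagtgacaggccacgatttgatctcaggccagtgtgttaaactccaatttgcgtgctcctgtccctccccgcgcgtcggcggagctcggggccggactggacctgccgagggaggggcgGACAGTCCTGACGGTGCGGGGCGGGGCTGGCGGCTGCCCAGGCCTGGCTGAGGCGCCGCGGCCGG

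The TERT window held 28 CpG dinucleotides and was 78.8% G or C, against medians of 11 and 58.0% over all windows of this length. The NF1 window held 25 and the BRAF window, chr7:140924269-140924518, held 14. The nearest call to the TERT window was 985 bp away, inside the gene, and the nearest calls to the BRAF and NF1 windows were 60259 and 54227 bp away.

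TERT (ENSG00000164362) had the strongest signal with LGP2 among the 4 genes. All 3 of its regions were called only in the oeLGP2 library. Over them the oeLGP2 library had 14 reads and the vector library 3, so that 82.4% [56.6 to 96.2] of the reads came from oeLGP2. The regions were all called by that library, and over all oeLGP2-only regions of the series the share was 69.5%, within the interval. The log2 ratio of the summed reads, with 1 read added to each library, was 1.91.

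The TERT region with the most oeLGP2 reads lay well inside the gene, at chromosome 5, 1267859 to 1268326. Its centre was 27.0 kb from the RefSeq start of TERT (5, 1253167 to 1295068, minus strand). The authors annotated it as promoter because a transcript with a retained intron starts 1336 bp away. The normalized density was 4.18 in the oeLGP2 library and 0.478 in the vector library, from 7 reads [2.81 to 14.4] and 0 reads [0 to 3.69]. The intervals overlapped. Of 16076 oeLGP2-only regions, 62 (0.386%) had 7 or more oeLGP2 reads and 0 vector reads. These limits are the region's own values, and the gene was picked with them known, so the share is a description.

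The region closest to the TERT promoter lay at chromosome 5, 1293720 to 1294084, 1.17 kb into the gene. Its density was 2.07 in the oeLGP2 library and 0.482 in the vector library, from 3 reads [0.619 to 8.77] and 0 reads [0 to 3.69]. The last TERT region lay upstream of the gene at chromosome 5, 1297314 to 1297632, with its centre 2.40 kb before the start. Its density was 2.64 in the oeLGP2 library and 1.89 in the vector library, from 4 reads and 3 reads. Most of the difference between the libraries thus lay in the regions inside the gene. There the oeLGP2 library had 10 reads and the vector library 0, a share of 100% [69.2 to 100] for oeLGP2. Over all oeLGP2-only regions of the series the share was 69.5%, just within that interval. The log2 ratios of the 3 densities, in the order given, were 3.13, 2.10 and 0.48. The first 2 rest on the 1 read added to a count of 0 and are not bounds on the fold.

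ATRX (ENSG00000085224) had 1 region called only in the oeLGP2 library and 3 called only in the vector library. Among regions called in 1 library, 40.1% were oeLGP2-only over chromosome X and 55.0% over the series. The oeLGP2 library had 6 reads over the 4 regions and the vector library had 12, a share of 33.3% [13.3 to 59.0] for oeLGP2. That share of reads was 41.2% over chromosome X, within the interval, and 22.7% over all vector-only regions of the series. The log2 ratio of the summed reads was -0.89 [-2.70 to 0.53], an interval that included 0. The direction depended on the span, since over the gene span given in the table the ratio was 0.26.

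The oeLGP2-only region of ATRX lay in intron 2 of 34, at chromosome X, 77712325 to 77712640. Its density was 3.16 in the oeLGP2 library and 1.42 in the vector library, from 5 and 2 reads, and the log2 ratio was 1.15. Closer to the end of the gene, in intron 30 of 34 at chromosome X, 77545303 to 77545655, the density was 1.05 in the oeLGP2 library and 2.39 in the vector library. These came from 1 and 4 reads. A region at chromosome X, 77590034 to 77590455, 163 bp from the start of a non-coding transcript of the gene, had 0 and 2 reads. It was the weakest of the 12 regions.

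The vector-only region of ATRX with the lowest ratio was not in the gene. It lay in intergenic sequence at chromosome X, 77797569 to 77797844, and 11.5 kb upstream of the RefSeq start. Its density was 0.520 in the oeLGP2 library and 2.40 in the vector library, from 0 reads [0 to 3.69] and 4 reads [1.09 to 10.2]. Over the RefSeq span of ATRX alone (X, 77504880 to 77786216, minus strand), the oeLGP2 library had 6 reads and the vector library 8. The log2 ratio of summed reads was then -0.36.

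BRAF (ENSG00000157764) had 2 regions, 1 called in each library. The vector-only region was annotated as 3′ UTR, at chromosome 7, 140733500 to 140733775, near the end of the gene. Its density was 0.520 in the oeLGP2 library and 2.40 in the vector library, from 0 and 4 reads. The oeLGP2-only region lay in intron 3 of 18, at chromosome 7, 140820702 to 140820978, with a density of 1.58 in the oeLGP2 library and 1.90 in the vector library. These came from 2 and 3 reads, so the library that had called the region had the lower density there. Over both regions the oeLGP2 library had 2 reads and the vector library 7, a share of 22.2% [2.81 to 60.0] for oeLGP2 and a log2 ratio of -1.42. The log2 ratio of the intron 3 region, -0.27, turned to 0.07 when each library was scaled to its reads in regions called in the opposite library alone.

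The RefSeq span of BRAF (7, 140713328 to 140924929, minus strand) held 2 more regions that the authors assigned to other genes. In intron 1 of 18 of BRAF, at chromosome 7, 140863695 to 140864010, a vector-only region had 0 oeLGP2 reads and 3 vector reads. It was assigned to RNU6-85P, a small RNA pseudogene that lies within the BRAF span. At the other end, at chromosome 7, 140714061 to 140714396, an oeLGP2-only region had 3 and 1 reads. It was annotated to an intron of NDUFB2, a subunit of respiratory complex I. Over all 4 regions in the span the oeLGP2 library had 5 reads and the vector library 11, a log2 ratio of summed reads of -1 [-3.01 to 0.50].

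NF1 (ENSG00000196712) had 3 regions, all in introns. A vector-only region in intron 1 of 13 of an NF1 transcript, at chromosome 17, 31149203 to 31149482, had a density of 0.520 in the oeLGP2 library and 2.40 in the vector library. The reads were 0 and 4. An oeLGP2-only region in intron 4 of 13 of the same transcript, at chromosome 17, 31168689 to 31168944, had a density of 2.09 in the oeLGP2 library and 0.957 in the vector library, from 3 and 1 reads. Both lay within 73.8 kb of the gene start and differed in opposite directions, with log2 ratios of -2.21 and 1.13. The last NF1 region, in intron 56 of 56 at chromosome 17, 31365211 to 31365457, was called only in the oeLGP2 library. The density was nevertheless 1.58 in the oeLGP2 library and 2.37 in the vector library, from 2 and 4 reads.

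NF1 also holds nested genes with calls of their own. EVI2B and EVI2A are transmembrane protein genes that lie within the RefSeq span of NF1 (17, 31094977 to 31377675, plus strand). EVI2B had a vector-only region at chromosome 17, 31305614 to 31306003, with 1 oeLGP2 read and 3 vector reads. EVI2A had an oeLGP2-only region at chromosome 17, 31324486 to 31324781, with 2 and 1 reads. Whole-gene sums were 8 and 13 reads with these regions, against 5 and 9 reads over the regions assigned to NF1 by symbol. The share from oeLGP2 was 38.1% [18.1 to 61.6] with them and 35.7% [12.8 to 64.9] by symbol. Over the narrower gene span given in the table the direction turned, with a log2 ratio of summed reads of 0.22 against -0.74 by symbol.

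**Figure D1:**
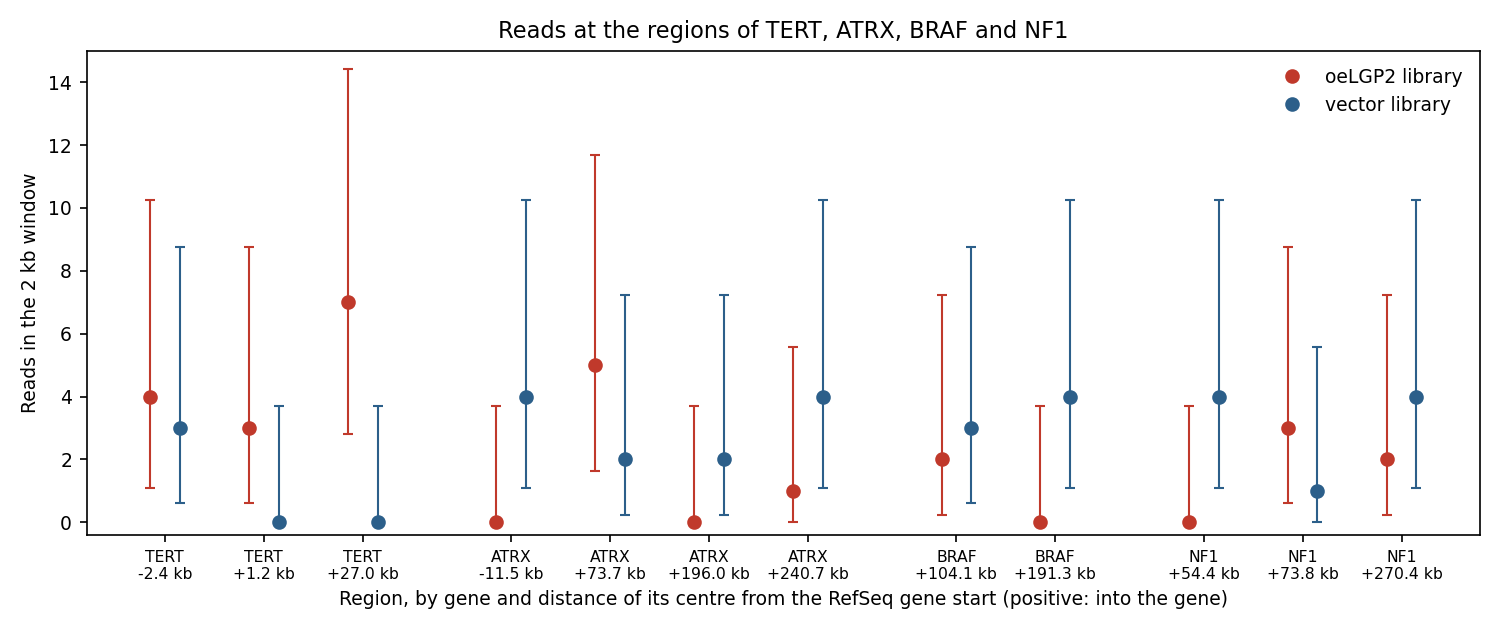
Reads in the 2 kb window at each of the 12 regions, with exact 95% Poisson intervals; the oeLGP2 library is drawn left of the vector library in each pair, and the x axis gives the distance in kb of the region's centre from the RefSeq start. The intervals of the 2 libraries overlap at every region, including the TERT region with 7 oeLGP2 reads and 0 vector reads. Overlap of 2 separate intervals does not show that the counts are equal.

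ATRX, BRAF and NF1 thus each had a region with the same values, 0 oeLGP2 reads and 4 vector reads, and a log2 ratio of -2.21. The intervals of 0 to 3.69 and 1.09 to 10.2 reads overlapped, which alone does not show that the counts were equal. Values of this size were frequent in the series. Among 13147 vector-only regions, 2292 (17.4%) had 4 or more vector reads and 0 oeLGP2 reads. Of the 3 regions, 1 was upstream of its gene, 1 at a 3′ UTR and 1 in an early intron.

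Over the 12 member regions, 4 had at least 2-fold higher density in the oeLGP2 library, where 29.5% of all 29302 regions did, and 5 had at least 2-fold lower density, where 25.2% did. By call, 7 were oeLGP2-only and 5 were vector-only. In the whole series 54.9% of regions were oeLGP2-only and 44.9% vector-only. Since the genes were picked from this contrast, nothing is read from these counts. The median log2 ratio was -0.43 over the 12 regions and 0.15 over all regions. The ratio pointed to the library that had called the region at 10 of the 12, the exceptions being the oeLGP2-only regions in BRAF intron 3 and NF1 intron 56. The regions were 246 to 467 bp wide, near the median of 306 bp for the series. Introns held 6 of them, promoters 4, a 3′ UTR 1 and intergenic sequence 1.

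Whether the difference at a gene was shared by its surroundings was examined with the 43 background regions. These include the NDUFB2 and RNU6-85P regions inside the RefSeq span of BRAF and the EVI2B and EVI2A regions inside that of NF1. Those regions thus count both in the RefSeq-span sums above and as surroundings. The background regions were taken by position alone, but they come from the same contrast, so their counts are a description too. At the edge of the TERT window the last region inside, near MRPL36, lay 490.2 kb away with 3 oeLGP2 and 2 vector reads. The first outside, near ZDHHC11B, lay 533.2 kb away with 2 and 2 reads. The other windows ended with COPRS at 498.0 kb for NF1, RNA5SP509 at 428.6 kb for ATRX and SLC37A3 at 389.6 kb for BRAF. The first regions beyond them were near GOSR1, CYSLTR1 and RNU6-797P, at 657.2, 541.1 and 522.5 kb, with 3 and 2, 2 and 3, and 3 and 5 reads.

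The surroundings of TERT, near the end of the short arm of chromosome 5, were called almost entirely in the oeLGP2 library. Of 21 background regions, 19 were oeLGP2-only and 2 vector-only. That put 90.5% [69.6 to 98.8] on the oeLGP2 side, against 55.4% [53.1 to 57.6] over chromosome 5 and 55.0% over all regions called in 1 library. The interval treats neighbouring regions as independent. TERT was picked with its own calls known, so the comparison is a description and not a test. The balance held on either side of the gene, with 6 oeLGP2-only and 1 vector-only regions at lower coordinates and 13 and 1 at higher coordinates. It also held further out: from 500 to 1000 kb there were 18 oeLGP2-only and 3 vector-only regions (85.7% [63.7 to 97.0]). Regions well beyond TERT thus leaned the same way as its own.

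Calls were also denser around TERT. There were 21.0 regions per Mb [13.0 to 32.1], against 10.5 per Mb on chromosome 5 and 9.76 per Mb over the span of all chromosomes. The excess was in the oeLGP2 calls, 19.0 per Mb [11.4 to 29.7] against 5.81 on the chromosome. Vector calls numbered 2 per Mb [0.242 to 7.22], with an interval that held the 4.69 of the chromosome. Reads over the 21 regions were 87 in the oeLGP2 library and 55 in the vector library, so 61.3% [52.7 to 69.3] came from oeLGP2. Over all regions of chromosome 5 that share was 48.4%. Over all oeLGP2-only regions of the series it was 69.5%, whereas the 21 regions, mostly called by oeLGP2, include 2 vector-only ones. The vector library was not empty around TERT. At the 19 oeLGP2-only regions it had 2.21 reads per region [1.593 to 2.988]. That interval just held the 1.595 over all oeLGP2-only regions of the series. The oeLGP2 library had 4.53 reads per region at the 19, against 3.63 over the series, and no interval was computed for this mean. Both means were thus higher there, but neither was shown to lie beyond counting error.

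Among the neighbours of TERT, the nearest called gene on its 3′ side was the non-coding AC114291.1, with 6 oeLGP2 reads and 1 vector read at chromosome 5, 1249490 to 1249925. CLPTM1L, the coding gene next to the TERT promoter, had 4 and 4 reads at chromosome 5, 1335757 to 1336000, and 5 and 1 reads at chromosome 5, 1340822 to 1341109. SLC6A3, the dopamine transporter, had 3 oeLGP2-only regions, with 5 and 4, 2 and 3, and 6 and 3 reads. The most reads of the locus were at the non-coding AC116351.1, with 8 oeLGP2 and 3 vector reads in an intron. ZDHHC11, a palmitoyltransferase gene with a close copy beside it, had 4 and 0 reads, and reads may be split between such copies.

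The exceptions around TERT were at SLC12A7 and LPCAT1. SLC12A7, a potassium-chloride cotransporter, had 0 oeLGP2 reads and 8 vector reads in intergenic sequence at chromosome 5, 1128984 to 1129449, and a log2 ratio of -3.04. An intron of SLC12A7 had 5 oeLGP2 reads and 2 vector reads. LPCAT1, an enzyme of phospholipid remodelling, had 1 oeLGP2 read and 5 vector reads in an intron and 3 and 2 reads in its 3′ UTR. The locus thus held both the highest and the lowest log2 ratio of the 55 regions, 3.13 at TERT and -3.04 near SLC12A7. It also supplied 24 of the 55 regions, and both ratios rest on 1 read added to a count of 0.

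**Figure D2:**
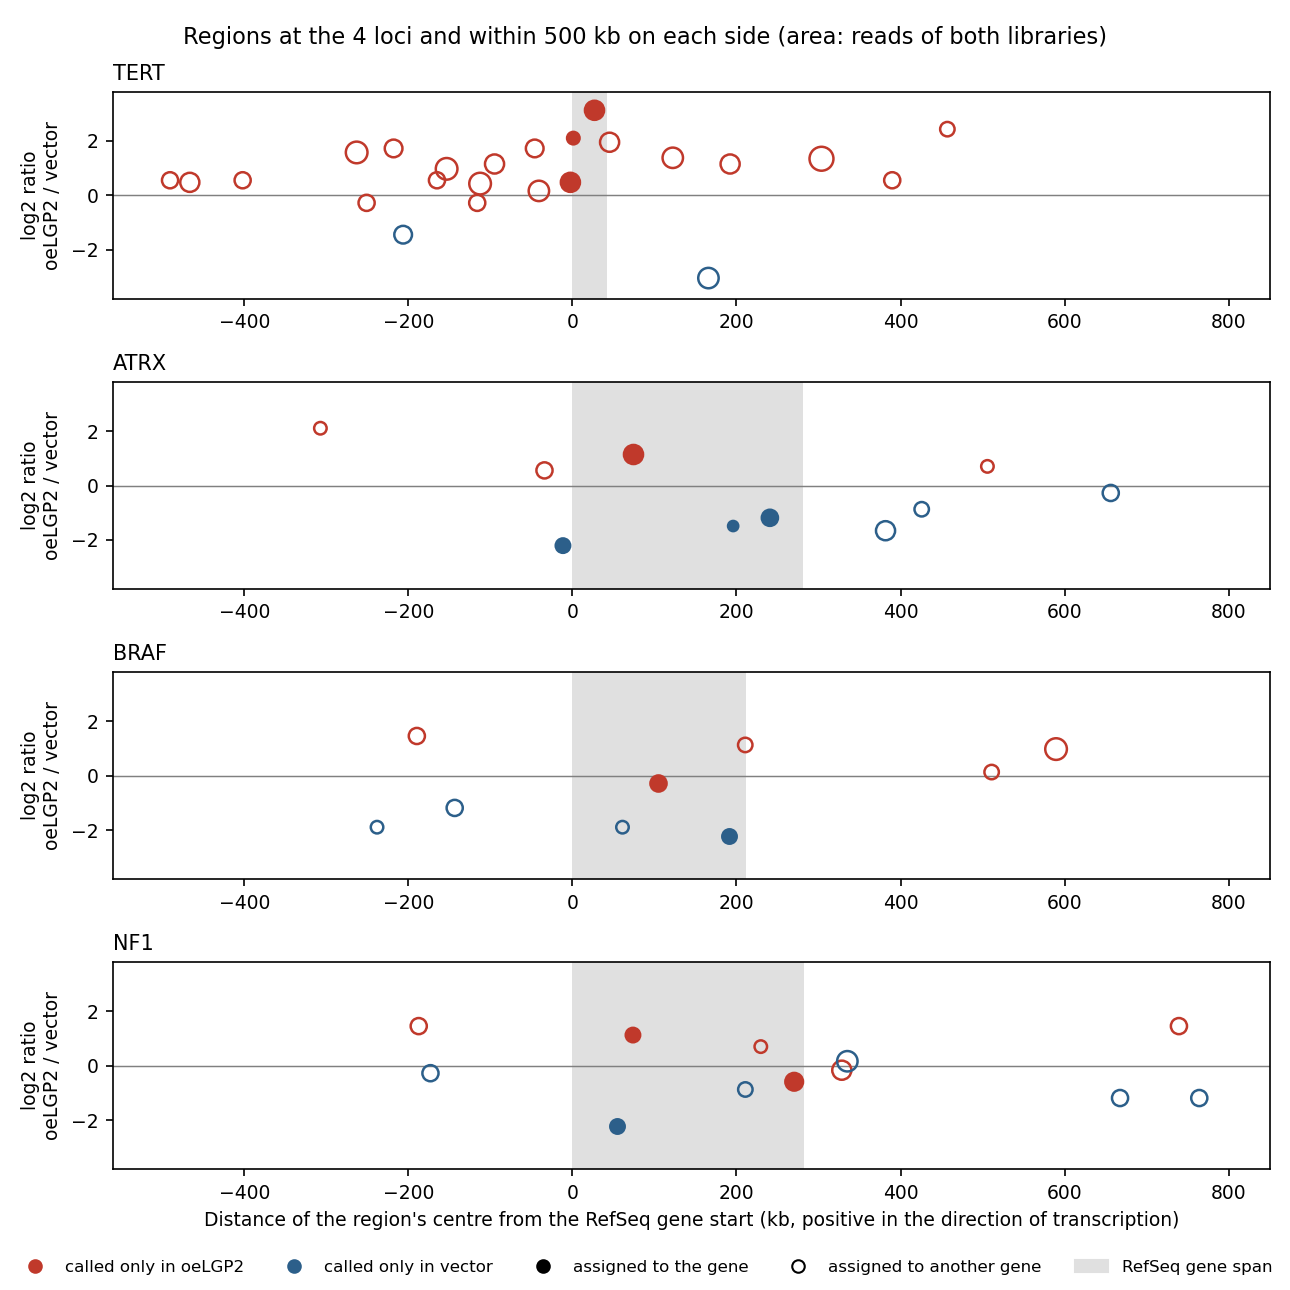
Log2 ratio of the normalized densities (oeLGP2 over vector) of the 55 regions against the distance of each region's centre from the RefSeq gene start, in kb; filled circles are assigned to the named gene and open circles to another gene, circle area follows the reads of both libraries, and grey marks the RefSeq gene span. Around TERT 19 of 21 open circles are oeLGP2-only, whereas at the other loci both libraries contribute.

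The surroundings of the other 3 genes held calls of both libraries in more even numbers, and their difference from those of TERT was not tested. Around ATRX there were 3 oeLGP2-only and 3 vector-only regions, a share of 50.0% [11.8 to 88.2], against 40.1% [36.4 to 44.0] over chromosome X. Calls were sparse, at 6 per Mb [2.20 to 13.1], with 4.27 per Mb on the chromosome. The strongest background signal near ATRX was vector-only, in intergenic sequence at chromosome X, 77404383 to 77404637, with 1 oeLGP2 read and 6 vector reads. It was assigned to the pseudogene SPRYD7P1, whose transcript start lay 30172 bp away. The other regions assigned to SPRYD7P1, 13544 and 93721 bp from it, had 1 and 3 and 2 and 1 reads. The region assigned to RNA5SP509, 63135 bp away, had 2 and 3. The nearest call upstream, 16960 bp from RNU6-854P, had 3 and 2. All of these lay in intergenic sequence. PGK1 encodes an enzyme of glycolysis, with 3 oeLGP2 reads and 0 vector reads in an intron at chromosome X, 78093116 to 78093565. On the side of lower coordinates 1 region was oeLGP2-only and 3 were vector-only, and on the other side 2 were oeLGP2-only.

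Around BRAF, 4 background regions were oeLGP2-only and 3 vector-only (57.1% [18.4 to 90.1], against 55.9% over chromosome 7), at 7 per Mb [2.81 to 14.4]. SLC37A3, a sugar-phosphate carrier family member, had the most reads, with 6 oeLGP2 and 3 vector reads at chromosome 7, 140335244 to 140335524. TMEM178B had 4 and 1 reads in an intron and 1 and 4 reads in intergenic sequence 5452 bp from a transcript start, so the same gene had calls in both directions. A further region with 0 and 3 reads also lay in intron 1 of 3 of TMEM178B. It was assigned to the pseudogene AC006362.1, 10008 bp away.

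Around NF1, 4 background regions were oeLGP2-only and 5 vector-only. The share of 44.4% [13.7 to 78.8] had an interval that held the 61.8% of chromosome 17. Promoters held 6 of the 9. ADAP2, an ARF GTPase-activating protein, had 4 oeLGP2 reads and 1 vector read at chromosome 17, 30907546 to 30907886, and 2 and 3 reads at chromosome 17, 30921880 to 30922133, the region that enters the promoter printed above. COPRS, a partner of the arginine methyltransferase PRMT5, had 1 and 4 reads at chromosome 17, 31858923 to 31859239, over its promoter. RAB11FIP4, an effector of RAB11, had 3 and 4 reads in an intron and 4 and 4 at a promoter. The non-coding AC007923.1 had 1 and 4 reads at a promoter, and intergenic sequence assigned to AC004253.2 had 4 and 1.

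**Figure D3:**
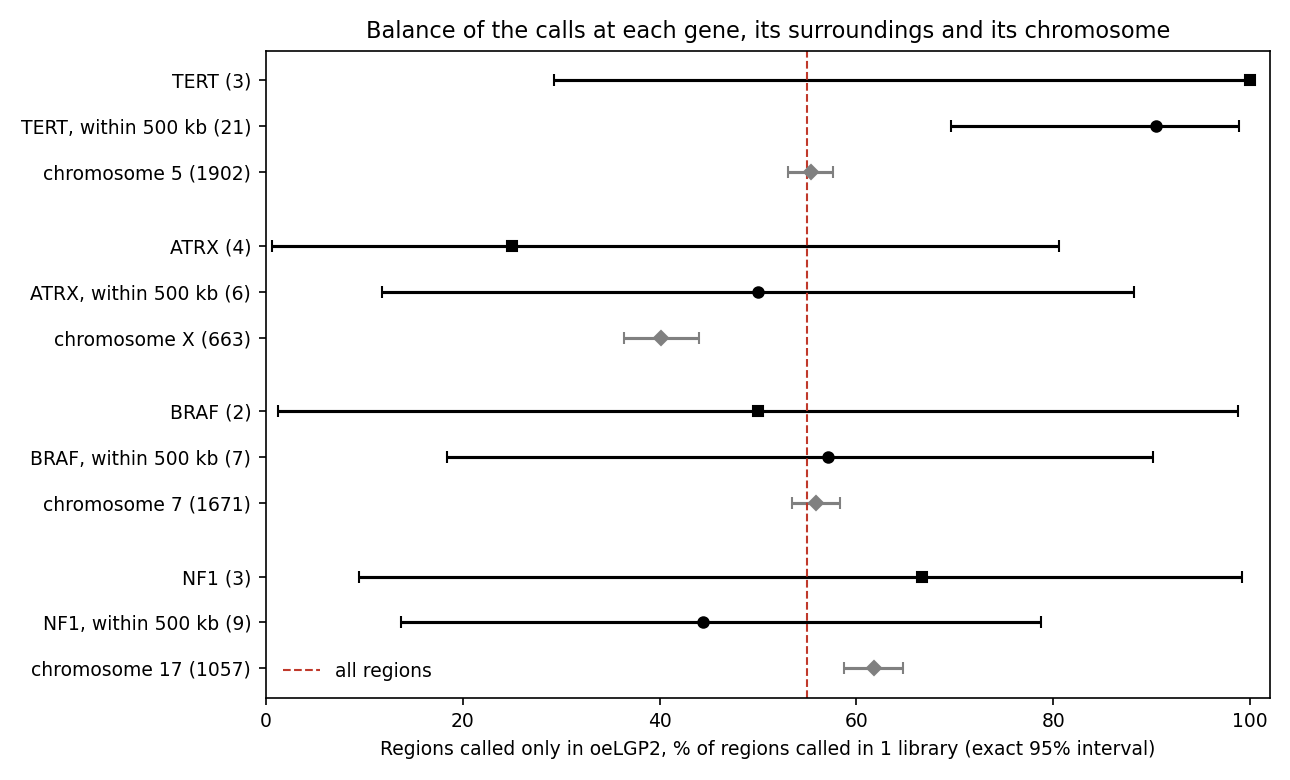
Share of oeLGP2-only regions among regions called in 1 library, in percent, for each gene, its surroundings within 500 kb and its chromosome, with the number of regions in brackets and exact 95% intervals; the dashed line marks 55.0% over all regions. The share around TERT is 90.5% [69.6 to 98.8] over 21 regions. The other surroundings have 6 to 9 regions and wider intervals, and no interval was used as a test.

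Other genes of the same pathways were counted in 3 lists, with the 4 genes themselves left out. The regions of the series were assigned to 17169 genes. The share of all genes with a region was not computed, so the lists have no such value beside them. Of 21 genes of telomere maintenance 5 had a region, 6 regions in all. SMARCAL1, a helicase that restores stalled forks at telomeres, had 7 oeLGP2 reads and 1 vector read within an intron (2, 216419538 to 216419781). It had 4 and 1 reads in another intronic region. WRAP53, which brings telomerase to Cajal bodies, had 4 and 1 reads at a promoter at chromosome 17, 7701371 to 7701624. POT1, the shelterin subunit that binds single-stranded telomeric DNA, had 0 and 3 reads in an intron. Intergenic sequence assigned to TERF1, a shelterin subunit on double-stranded repeats, had 3 and 4 reads, and an intron of TERF2IP had 2 and 1. At least 2-fold higher density in oeLGP2 was found at 3 of the 6 regions and at least 2-fold lower at 1, where 29.5% and 25.2% of all regions were. The median log2 ratio was 1.08 against 0.15 over all regions. TERC, DKC1 and DAXX were among the 16 genes of the list with no region.

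Of 32 genes between receptor tyrosine kinases and MAPK, the pathway of BRAF and NF1, 21 had a region. There were 47 regions, 23 oeLGP2-only and 24 vector-only. The oeLGP2-only share was 48.9% [34.1 to 63.9], against 55.0% over all regions called in 1 library. At least 2-fold higher density in oeLGP2 was found at 10 (21.3%) and at least 2-fold lower at 17 (36.2%), where 29.5% and 25.2% of all regions were, with a median log2 ratio of 0.13. The balance depended on the scaling: 14 were higher and 12 lower when each library was scaled to its reads in regions called in the opposite library alone, and 6 and 18 when the median ratio was set to 0. KSR2, a scaffold of the RAF-MEK complex and a long gene, held 10 of the 47. Without it 7 of 37 regions (18.9%) were at least 2-fold higher and 13 (35.1%) at least 2-fold lower. The highest ratio was at an intron of KSR2, with 5 oeLGP2 reads and 0 vector reads. It was followed by introns of KSR1, with 4 and 0 reads, and SOS2, a RAS exchange factor, with 3 and 0, as at a region near SPRY2. The lowest were at an intron of MAP2K1, which encodes MEK1, and at intergenic sequence near SPRY2, an inhibitor of the pathway, each with 0 and 5 reads. KSR2 also had a promoter region with 0 and 4 reads.

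Of 30 other glioma drivers 9 had a region, 17 in all, with 11 oeLGP2-only and 6 vector-only. That put 64.7% [38.3 to 85.8] on the oeLGP2 side, an interval that held the 55.0% of all regions called in 1 library. At least 2-fold higher density in oeLGP2 was found at 7 and at least 2-fold lower at 2 (41.2% and 11.8%, against 29.5% and 25.2% of all regions), and the median log2 ratio was 0.70. With the median ratio of all regions set to 0, 6 were higher and 5 lower. SMARCA4, a chromatin remodeller, had 4 regions, all oeLGP2-only. The reads were 3 and 0 in an intron at chromosome 19, 11050312 to 11050692, 4 and 1 in intergenic sequence, and 4 and 1 and 5 and 2 at the others. Neighbouring regions of SMARCA4, and of KSR2, lay close enough for their windows to overlap, so these counts can share reads. PIK3R1, a regulatory subunit of PI3-kinase, had 3 and 0 reads and 3 and 8 reads at promoter regions. RB1, which holds back entry into the cell cycle, had 0 oeLGP2 reads and 4 vector reads in an intron. The counts are those of single libraries, and the regions of a gene share its locus.

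**Figure D4:**
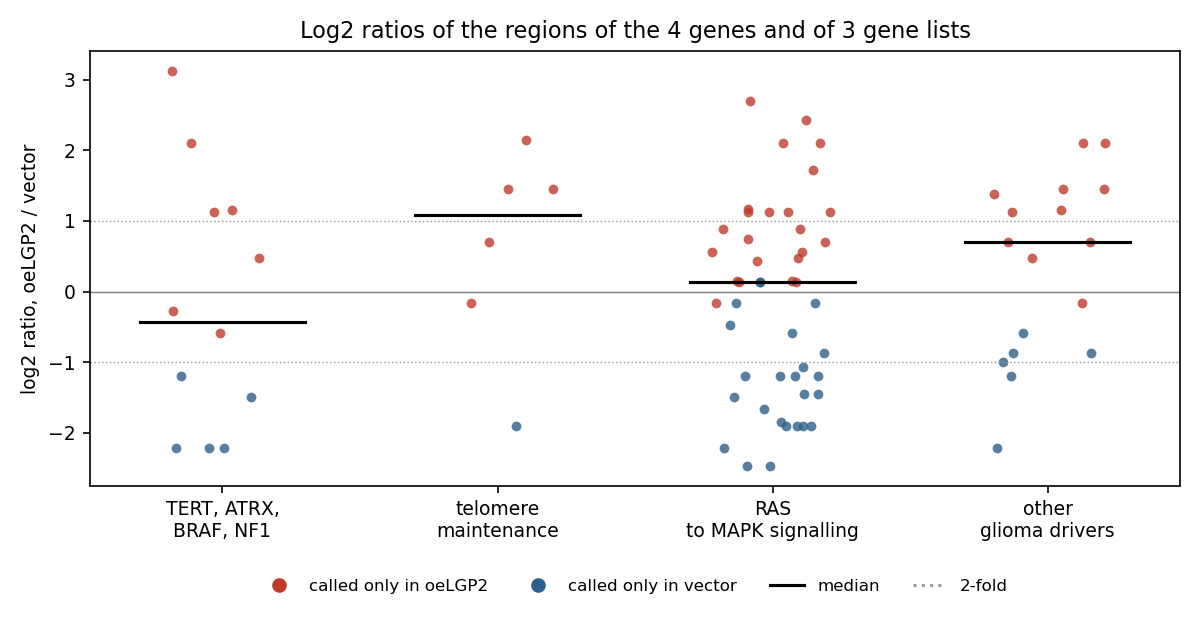
Log2 ratio of the normalized densities (oeLGP2 over vector) of each region of the 4 genes and of the 3 gene lists, coloured by the library that called it; black lines are medians (-0.43 for the 4 genes, then 1.08, 0.13 and 0.70 from left to right) and dotted lines mark 2-fold. Each list has regions on both sides of 0.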

How the data were processed

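ChIP-seq values came from 1 table of 29302 regions. The authors called regions per library and deposited a normalized read density, a coverage signal, for each library. The sources used here do not give the aligner, caller, threshold or normalization. The labels name mm10, but 99.2% of 9893 coding transcripts overlapped the RefSeq gene of their symbol in GRCh38.p14, so positions were read as GRCh38. Columns with the authors' own log ratio, mean level and p-value were not used.

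Whole reads were solved from the deposited densities after removal of a straight line in the mean log2 level (intercept 0.105, slope 0.0452), with 1 read added per library (Python 3.11.15, numpy 2.4.6, scipy 1.17.1), and the recovery was tested on simulated data. Intervals are exact Clopper-Pearson or Poisson intervals. With 1 library per group no test was run. Regions per Mb of a chromosome were taken between its first and last region. Named background regions were the 3 with the most reads, the 3 highest and 3 lowest ratios per locus and the nearest on either side, and in lists the 3 highest and 3 lowest ratios. The SLC12A7 intron, the LPCAT1 3′ UTR and further regions of SMARCA4 and SPRY2 were named after their values were seen. Among the list regions, 1 that this rule names is not reported here. Members and lists were chosen with earlier results of these data known. Alternatives covered scaling, added reads, a read minimum, window and gene span. The RefSeq span, the scaling of summed reads and the ring from 500 to 1000 kb were added after the data were seen.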

Additional observations from a re-analysis of the deposited data

How the results depend on the processing

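All 36 alternative log2 ratios of the 12 member regions stayed within the counting interval of the main value. At 2 to 7 reads per region these intervals are wide, so this says little. With 5 reads added, the TERT ratios of 3.13 and 2.10 fell to 1.39 and 0.78. Those of -2.21 at ATRX, BRAF and NF1 moved to -0.74. In sign, 11 regions stayed the same, and the exception was the BRAF intron 3 region. With 5 or more reads required in the calling library, TERT kept 1 oeLGP2-only region, ATRX kept 0 vector-only regions and its log2 ratio of summed reads was 1.00 in place of -0.89, since only its intron 2 region was left. BRAF and NF1 kept 0 regions of either kind. The TERT surroundings kept 10 oeLGP2-only and 2 vector-only regions, ATRX 0 and 1, BRAF 1 and 0, and NF1 0 and 0. Within 250 kb there were 11 oeLGP2-only regions around TERT, 1 around ATRX and 1 around BRAF, and 3 vector-only regions around NF1. Within 1000 kb the oeLGP2-only and vector-only counts were 37 and 5 for TERT, 7 and 9 for ATRX, 9 and 10 for BRAF, and 9 and 9 for NF1. Over the gene span of the table ATRX had 1 vector-only region, and the log2 ratios of summed reads changed sign for ATRX (0.26 in place of -0.89) and NF1 (0.22 in place of -0.74). Over the RefSeq span BRAF had 2 of each kind and NF1 had 2 vector-only regions. With 5 reads added, at least 2-fold higher and lower density was left at 1 and 0 telomere regions, 1 and 0 MAPK regions, and 0 and 0 regions of other drivers. Scaled to a median ratio of 0 (a shift of -0.15), 6 MAPK regions were higher and 18 lower, and 5 regions of other drivers lower. Over all regions the shares higher and lower were then 23.4% and 30.2%. Scaling each library to its reads in regions called in the opposite library alone (a median shift of 0.35) left 14 MAPK regions higher and 12 lower and 1 region of other drivers lower, with shares of 38.4% and 19.6% over all regions. No paired analysis was possible because each group had 1 library. Depth is the main limit: 3 of 29302 regions had 20 or more reads.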
